A study of Mus musculus with 42 samples.

Results

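Esm1, Apln, Aplnr, Pcdh17, Kcne3 and Mgp were grouped here as sprouting genes, and their levels were followed in wounded skin of diabetic db/db mice. The 6 genes were chosen by measured values of these arrays, since most had been seen raised by VEGF at day 7, and each is read by 1 of the 20672 probe sets of the deposited table. The probe sets are 1449280_at for Esm1, 1451038_at for Apln, 1438651_a_at for Aplnr, 1436920_at for Pcdh17, 1418499_a_at for Kcne3 and 1448416_at for Mgp. The study asked which genes VEGF, IL-22-Fc and PDGF, given topically, change in the skin around such wounds. Affymetrix Mouse430V2 arrays were run on 42 samples in 9 groups. At 24 h after a single dose there were 5 arrays with VEGF (20 µg), 5 with IL-22-Fc (50 µg), 5 with PDGF (50 µg) and 4 with an anti-ragweed control antibody. At day 7, after a dose every other day, there were 5 arrays with VEGF (20 µg), 5 with IL-22-Fc, 3 with PDGF (50 µg) and 5 with the control. A further 5 arrays came from untreated skin at baseline, whose genotype the labels do not give. All wounded mice were db/db females, which lack the leptin receptor and are a model of type II diabetes with slow wound closure. The age is not in the labels, which name the strain as C57BL/6, whereas the study's methods give the BKS background for db/db. The methods also call the control protein control Fc and give another VEGF dose, and the design text gives another IL-22-Fc dose. A whole ring of skin was taken at each wound, so fewer cells of a type and less RNA per cell cannot be told apart.

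When a vessel sprouts, VEGF acts on its receptor on endothelial cells, and a leading tip cell moves out ahead of the stalk cells that form the tube. Esm1 encodes endocan, a proteoglycan secreted by tip cells. Apln encodes the peptide apelin, made by tip cells, and Aplnr its G protein-coupled receptor, found on stalk cells and on veins. Pcdh17 is a non-clustered protocadherin, a cell adhesion protein. Kcne3 is an accessory subunit of voltage-gated potassium channels. Mgp encodes matrix Gla protein, a secreted inhibitor of calcification that binds BMP ligands.

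RefSeq promoters (GRCm38.p6) were at hand for 4 of the 6 genes, and 3 are shown because they were called outside the contrast that chose the genes: Pcdh17 with VEGF at 24 h, and Apln and Esm1 in control wounds against untreated skin at both times. Each run is the 250 bases before the start site, 5′ to 3′ on the strand of the gene, with motif matches in capitals.
Pcdh17 (chr14:84443313-84443562, plus strand): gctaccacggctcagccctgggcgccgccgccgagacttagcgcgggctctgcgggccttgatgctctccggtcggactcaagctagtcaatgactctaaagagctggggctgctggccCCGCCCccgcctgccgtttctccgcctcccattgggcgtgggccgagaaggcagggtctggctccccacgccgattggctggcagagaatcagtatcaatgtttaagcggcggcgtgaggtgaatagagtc
Apln (chrX:48034854-48035103, minus strand): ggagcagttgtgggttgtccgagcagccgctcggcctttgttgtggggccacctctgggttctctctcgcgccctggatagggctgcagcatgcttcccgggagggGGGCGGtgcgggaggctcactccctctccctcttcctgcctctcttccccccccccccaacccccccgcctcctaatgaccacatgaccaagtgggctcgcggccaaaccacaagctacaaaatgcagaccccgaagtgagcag
Esm1 (chr13:113209409-113209658, plus strand): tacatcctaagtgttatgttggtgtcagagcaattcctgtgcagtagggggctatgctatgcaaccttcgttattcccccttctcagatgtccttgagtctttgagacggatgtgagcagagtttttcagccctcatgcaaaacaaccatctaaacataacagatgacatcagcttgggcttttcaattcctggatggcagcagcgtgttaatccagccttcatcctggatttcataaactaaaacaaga
The motifs searched on both strands were ACGTG (the core of hypoxia response elements), CCGGAA (ETS factors), GTGGGAA (RBPJ), TGANTCA (AP-1) and GGGCGG (the GC box). They occur in 16.6%, 12%, 5.42%, 6.75% and 32.7% of the 32851 RefSeq promoters over the same 250 bases, in that order. Pcdh17 held 1 GC box, on the opposite strand, 131 bases before the start, and Apln held 1 at 144 bases. None of the 5 motifs was in the Esm1 window. Kcne3 has a pair of annotated start sites, whose windows overlap the annotated gene and are not printed. The first held ACGTG at 140 bases and TGANTCA at 37 bases before the start, and the second held GGGCGG at 97 and at 47 bases. No match overlapped another motif. None of the motifs was found in all 4 genes.

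**Figure D1:**
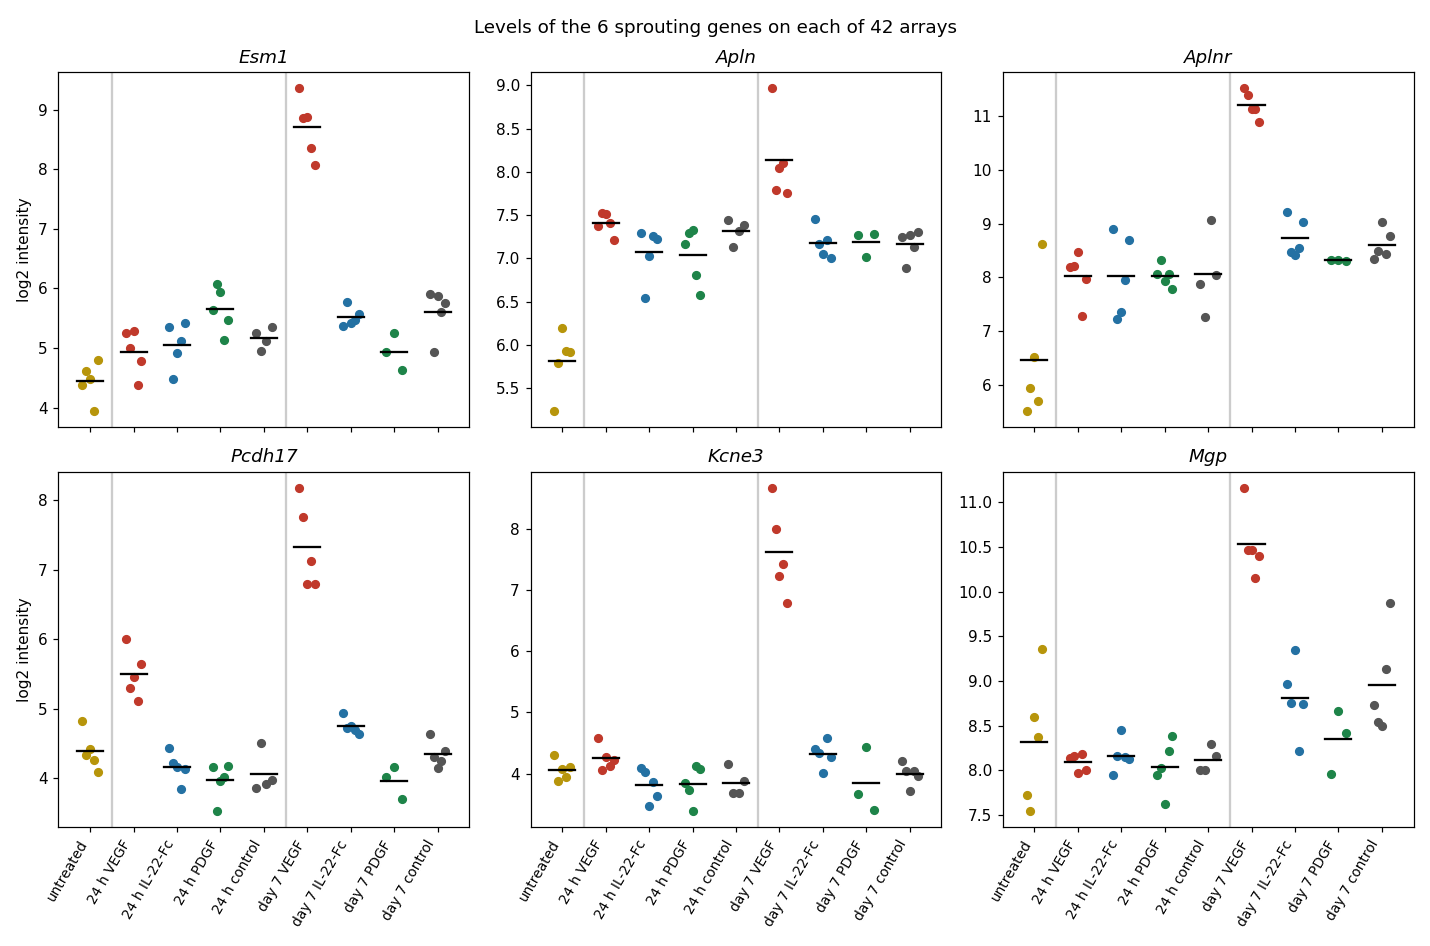
Log2 intensity of each gene on every array (points) with the group mean (bar), for untreated skin, the groups at 24 h and the groups at day 7. The day 7 VEGF arrays lie above the 37 other arrays in all 6 panels, and Pcdh17 is also raised in the 24 h VEGF arrays, at 5.11 to 6.01.

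The day 7 VEGF arrays stood above every other array for all 6 genes. This contrast chose the genes, so its values are a description. A level here is the log2 of the deposited intensity, and a difference of 1 is 2-fold. Kcne3 had 8.68, 8.01, 7.24, 7.43 and 6.80 in VEGF wounds, against 4.20, 4.04, 3.71, 4.04 and 3.97 in control wounds. Its difference of 3.64 (standard error 0.25) was the highest of all probe sets. Esm1 read 9.36, 8.85, 8.87, 8.35 and 8.06 with VEGF, against 5.90, 4.94, 5.87, 5.60 and 5.75 in the control, and its difference of 3.09 (standard error 0.20) ranked 2. Pcdh17, the adhesion protein, had 8.18, 7.75, 6.79, 7.13 and 6.80 with VEGF, against 4.64, 4.31, 4.15, 4.25 and 4.40 in the control, a difference of 2.98 (standard error 0.20). The lowest of these VEGF arrays was 0.78 above the highest of the other 37, a 24 h VEGF array.

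The apelin receptor and its ligand were both raised in these arrays, by different amounts. Aplnr read 11.53, 11.39, 11.13, 11.13 and 10.89 in VEGF wounds at day 7, against 8.34, 8.49, 9.02, 8.44 and 8.77 in control wounds. Apln read 8.97, 7.79, 8.04, 8.11 and 7.75 with VEGF, against 7.25, 6.89, 7.27, 7.13 and 7.31 in the control. The differences were 2.60 (standard error 0.16) for the receptor and 0.96 (standard error 0.17) for the ligand, and neither gene overlapped with its control. Apela, the other ligand of this receptor, differed by -0.19. Mgp had 11.16, 10.47, 10.47, 10.15 and 10.40 with VEGF, against 8.73, 8.54, 8.50, 9.13 and 9.87 in the control, a difference of 1.57 (standard error 0.24). The margin to the other 37 arrays ran from 0.23 for Apln and 0.28 for Mgp to 2.21 for Kcne3. All 6 genes exceeded 1.5-fold at an adjusted p under 0.05 in this contrast, as did 1.96% of all probe sets in the same direction. In 1.17% of probe sets the 5 arrays lay above all others. Nothing is read from these counts, since the contrast selected the genes.

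Within the VEGF arrays of day 7 the genes shared the highest array, but not the full order. Replicate 1 was highest for each of the 6, and also for the mean of 25 endothelial genes, at 8.24. Replicate 5 was the lowest for Esm1, Apln, Aplnr and Kcne3, replicate 3 for Pcdh17 and replicate 4 for Mgp.

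Most of 25 endothelial genes were raised in the same arrays, which bears on how the 6 stand out. The mean of the 25 endothelial genes (Pecam1, Cdh5, Tek and others) was 8.06 ± 0.13 (SD, n = 5) with VEGF, against 7.01 ± 0.04 (SD, n = 5) in the control at day 7, a difference of 1.05. Of the list, 19 were higher, 1 was lower and 5 were not called, with a median change of 1.06 against -0.01 over all probe sets. Of all probe sets 1.96% were higher and 3.58% lower in this contrast, which is the background of each list below. The largest were Emcn, an endothelial sialomucin, at 2.25, the receptor tyrosine kinase Tie1 at 1.90, the transcription factor Sox18 at 1.72 and the adhesion molecule Icam2 at 1.69. The gene that was lower was Vwf, von Willebrand factor, at -0.80. A list of 30 other tip-cell genes had 18 higher and none lower, with a median of 0.75. Its largest were the receptor Notch4 at 1.87, the peptide adrenomedullin (Adm) at 1.75, the basement membrane protein Nid2 at 1.60 and the VEGF receptor Kdr at 1.56. These lists were chosen with earlier results of the arrays known. Pericyte and smooth muscle genes also had 7 of 12 higher, with means of 9.08 to 9.37 in VEGF arrays and 8.30 to 8.57 in control arrays. Keratinocyte genes averaged 10.10 to 10.29 with VEGF and 10.69 to 11.03 in the control, with 7 of 9 lower, and adipocyte genes 8.69 to 9.09 with VEGF and 9.36 to 9.74 in the control, with 5 of 7 lower. Lymphatic endothelial genes were not raised, with averages of 7.08 to 7.62 with VEGF and 7.39 to 7.59 in the control. Macrophage genes averaged 11.14 to 11.54 with VEGF and 10.93 to 11.20 in the control. Fibroblast genes averaged 10.54 to 10.77 and 10.32 to 10.72, and skeletal muscle genes 10.52 to 11.16 and 10.97 to 11.55, in the same order. The part of these cell types in the result was not tested.

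Relative to the endothelial mean of the same array, the day 7 differences of the 6 genes varied in size. The day 7 difference between VEGF and control remained at 2.59 for Kcne3, 2.04 for Esm1, 1.93 for Pcdh17, 1.56 for Aplnr and 0.53 for Mgp. For Apln it was -0.08, so the ligand differed by about as much as the endothelial list. These differences are a description too.

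**Figure D2:**
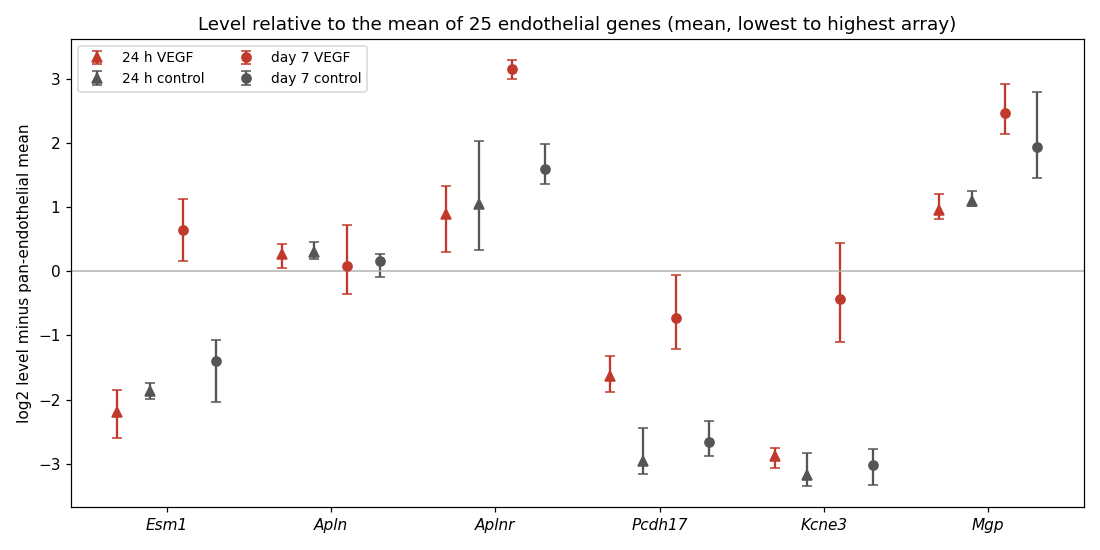
Log2 level of each gene minus the mean of 25 endothelial genes on the same array, for VEGF and control at 24 h (triangles) and at day 7 (circles), as the mean with bars from the lowest to the highest array. Offsets between genes depend on the probe sets and are not compared. At day 7 the VEGF range lies above the control range for Esm1, Aplnr, Pcdh17 and Kcne3 and overlaps it for Apln and Mgp, and at 24 h it does so only for Pcdh17.

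Relatives of the genes were called in part at day 7, where 1.96% of all probe sets were higher and 3.58% lower. Among 11 other non-clustered protocadherins, Pcdh18 (1.44) and the endothelial Pcdh12 (1.38) were higher with VEGF and 9 were not called, with a family median of 0.01. Among 9 measured KCNE subunits and channel partners, Kcne4 (0.64) and Kcnq1, the pore-forming partner of KCNE subunits (0.59), were higher, with a median of 0.08. Of 20 BMP pathway genes, which include the partners of Mgp, the target Id3 was higher at 0.60 and the ligand Bmp7 lower at -0.61, with a median of 0.16.

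At 24 h after VEGF, Pcdh17 was the single member called. The rule names the day 7 values only, but the genes were proposed with earlier results of all arrays known. Pcdh17 read 6.01, 5.30, 5.45, 5.11 and 5.64 with VEGF, against 3.87, 4.50, 3.92 and 3.98 in the control. Every VEGF array lay above every control array. The log2 change was 1.43 (standard error 0.17), 2.70-fold, with an adjusted p = 0.0003014 in limma over all probe sets and an exact permutation p = 0.0159, two-sided, the smallest that 5 arrays against 4 allow. It ranked 6 among all probe sets by size of increase. One of 6 members was therefore called higher, where 0.0919% of all probe sets were, or 19 of 20672. The control levels lie near those of probe sets for Y-linked genes, which female mice lack, so the size of the change may be a lower bound. These read 2.31 to 3.78 for Uty, Eif2s3y, Kdm5d and Usp9y and 4.62 to 5.56 for Sry. The day 7 control levels of Pcdh17 (4.15 to 4.64) and Kcne3 (3.71 to 4.20) lie near them too. Esm1 levels outside day 7 VEGF, 3.94 to 6.08, take in the range of Sry. The 24 h call of Pcdh17 was lost in an unmoderated two-sample test of each probe set, the kind that the study's legends name for single genes (Benjamini-Hochberg adjusted p = 0.151). Over all probe sets that test called 1 in this contrast, where limma called 21 in either direction.

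The early change of Pcdh17 was seen against each other treatment as well. These comparisons reuse the same 5 VEGF arrays and were added after seeing the data, so they do not repeat the finding. IL-22-Fc wounds read 4.43, 4.21, 4.17, 3.84 and 4.14 and PDGF wounds 4.16, 3.53, 3.97, 4.03 and 4.18 at 24 h, all below the VEGF arrays. VEGF exceeded IL-22-Fc by 1.34 (standard error 0.16, adjusted p = 0.000107 in limma) and PDGF by 1.53 (standard error 0.16, adjusted p = 9.17e-06 in limma), with an exact permutation p = 0.00794 for each. In the first of these contrasts 0.305% of probe sets were higher, and Pcdh17 was the 1 member. In the second, 3.45% were called in either direction, and 2 members were, since Esm1 differed by -0.71 (adjusted p = 0.0274 in limma). The Esm1 call was lost on leaving out any one of VEGF replicates 4 and 5 and PDGF replicates 1, 2 and 3, with adjusted p of 0.0519 to 0.0832. The difference of Pcdh17 between VEGF and control was 1.54 larger at day 7 than at 24 h, given as a description since it uses the day 7 VEGF arrays.

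The endothelial list changed less at 24 h. The mean of the list was 7.13 ± 0.12 (SD, n = 5) with VEGF, against 7.02 ± 0.09 (SD, n = 4) in the control at 24 h, a difference of 0.11 (exact permutation p = 0.175). None of the 25 endothelial genes and none of the 30 tip-cell genes was called, with medians of 0.08 and 0.11. With no fold threshold, 1 of the 55 was past an adjusted p of 0.05, Emcn, which was higher by 0.49 (adjusted p = 0.0148 in limma). Among tip-cell genes the largest positive change was that of the Notch ligand Dll4, 0.58 (adjusted p = 0.109 in limma). Cxcr4 (-0.63) and Marcksl1 (-0.61) of the same list were lower by more, also without a call. These genes were named after their values were seen. Relative to the endothelial mean, Pcdh17 was -1.88 to -1.32 with VEGF, against -3.16 to -2.44 in the control, a difference of 1.33 (exact permutation p = 0.0159). No other protocadherin of the list was called, and the median of the 11 was -0.01. Pericyte and smooth muscle genes averaged 8.34 to 8.55 in the VEGF arrays and 8.08 to 8.22 in the control arrays, without overlap, with 1 of 12 called higher. Their part in the Pcdh17 result was not tested.

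The 5 other genes showed no call with VEGF at 24 h. Kcne3, the member most changed at day 7, read 4.58, 4.06, 4.27, 4.12 and 4.22 with VEGF, against 4.15, 3.69, 3.69 and 3.88 in the control. The groups overlapped, and the change of 0.40 (standard error 0.16) had an adjusted p = 0.477 in limma and an exact permutation p = 0.0476. These Kcne3 levels lie near those of the Y-linked probe sets, where a change in transcript may read small. Esm1 read 5.24, 5.00, 5.29, 4.38 and 4.77 with VEGF, against 5.24, 4.95, 5.11 and 5.35 in the control, a change of -0.23 (standard error 0.21). Changes of the others were 0.09 for Apln, -0.04 for Aplnr and -0.02 for Mgp, with standard errors of 0.16, 0.34 and 0.12. The 4 control arrays of Aplnr ran from 7.27 to 9.07.

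**Figure D3:**
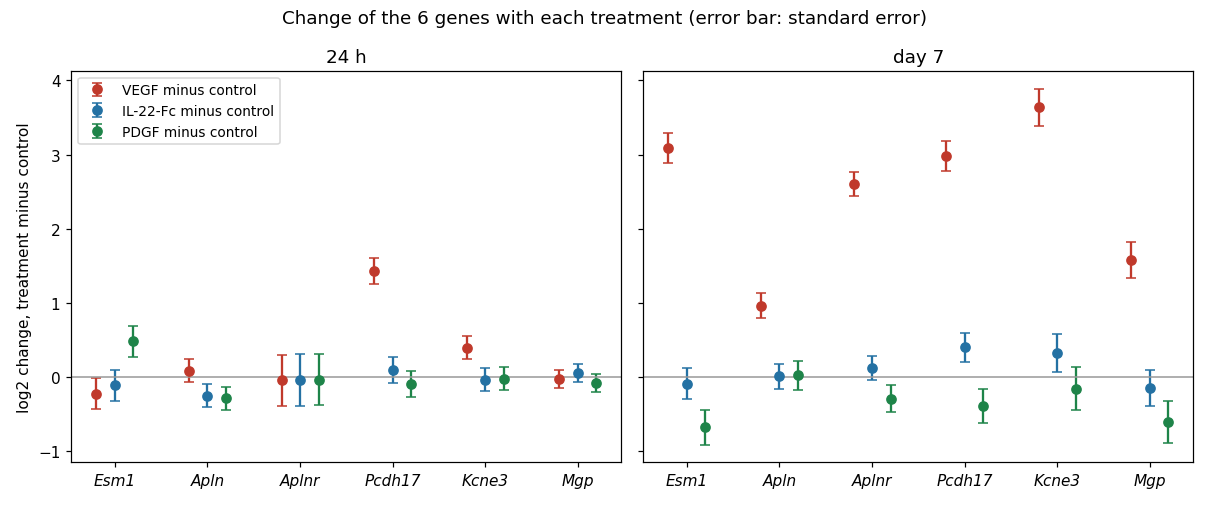
Log2 change of each gene, treatment minus the control of the same time, for VEGF, IL-22-Fc and PDGF at 24 h (left) and day 7 (right), with the standard error of the limma fit. VEGF is apart for all 6 genes at day 7, from 0.96 to 3.64, and for Pcdh17 alone, at 1.43, at 24 h.

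IL-22-Fc, a fusion of the epithelial cytokine IL-22, changed none of the 6 genes past the threshold at either time. No member was called at 24 h, where 0.0967% of probe sets were, and none had an unadjusted p under 0.05. At day 7 no member was called, where 2.3% of probe sets were. Pcdh17 read 4.94, 4.72, 4.75, 4.70 and 4.64 with IL-22-Fc, just above the 4.64, 4.31, 4.15, 4.25 and 4.40 of the control. The groups did not overlap, and the change of 0.40 (standard error 0.20) had an exact permutation p = 0.00794, the smallest that 5 against 5 allow, but an adjusted p = 0.287 in limma. Kcne3 differed by 0.33 (adjusted p = 0.539 in limma, exact permutation p = 0.0317). These comparisons use the 5 control arrays of the contrast that chose the genes. No member passed the test of a change in the response to IL-22-Fc from 24 h to day 7, against 1.43% of probe sets.

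With PDGF the difference of Esm1 from the control had opposite signs at the 2 times. No member was called at 24 h and 1 at day 7, a share of the 6 near that of all probe sets, so the count says nothing particular about these genes. The day 7 comparisons use the 5 control arrays of the contrast that chose the genes. At 24 h Esm1 read 5.63, 6.08, 5.94, 5.13 and 5.47 with PDGF, against 5.24, 4.95, 5.11 and 5.35 in the control, a change of 0.49 (standard error 0.21) that was not called (adjusted p = 0.260 in limma). No member was, where 0.914% of probe sets were. At day 7 it read 4.93, 5.26 and 4.62 with PDGF, against 5.90, 4.94, 5.87, 5.60 and 5.75 in the control. The PDGF levels lie within those of the Y-linked Sry probe set, 4.62 to 5.56, where a change in transcript may read small. One control array lay among the PDGF arrays, and the change of -0.67 (standard error 0.24, adjusted p = 0.0312 in limma) made Esm1 the 1 member called, against 16% of all probe sets. The exact permutation p was 0.0714, and 3 arrays against 5 cannot go below 0.0357. The PDGF effect on Esm1 differed between the times by -1.16 (standard error 0.33, adjusted p = 0.00654 in limma), again the 1 member, a share below the 20.9% of probe sets called. Mgp differed by -0.61 (adjusted p = 0.103 in limma) at day 7, and Apln, Pcdh17 and Kcne3 by 0.02, -0.39 and -0.16. Aplnr read 8.33, 8.32 and 8.31 with PDGF, just below the lowest control array at 8.34, a change of -0.29 (adjusted p = 0.237 in limma, exact permutation p = 0.0357).

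The PDGF arrays of day 7 had low levels of the control probe sets at the 5′ end of Gapdh and Actb. Their mean was 11.92 to 12.18, against 12.95 to 13.18 in the control. With this level as a covariate the Esm1 change at day 7 was -0.33 (adjusted p = 0.883 in limma) and the difference between the times was -1.42 (adjusted p = 0.260 in limma). Neither was then called. The lowest other day 7 array was at 12.89, so at day 7 the covariate nearly coincides with the PDGF group. A call lost or turned with it cannot tell a PDGF change from one of this level. The day 7 call was also lost without any one of control replicates 1, 3 and 5 or PDGF replicates 1 and 3, with adjusted p of 0.0562 to 0.161. Between IL-22-Fc and PDGF at day 7 Pcdh17 differed by 0.79 (standard error 0.23, adjusted p = 0.00912 in limma), with 4.64 to 4.94 in IL-22-Fc arrays and 3.70 to 4.17 in PDGF arrays. It was the 1 member called, a share near the 17.9% of all probe sets. The covariate turned this difference to -0.25 (adjusted p = 0.92 in limma), and without PDGF replicate 3 it was 0.66 (adjusted p = 0.0603 in limma).

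In control wounds the apelin pair and Esm1 were higher than in untreated skin at both times, whereas Pcdh17 and Kcne3 were not called. Since the genotype of the untreated skin is not given, a difference from it cannot be told apart from one of genotype. The sample titles of untreated skin also form a number series apart from that of all wounds, whose meaning the labels do not give. A difference between these series cannot be told apart either. The day 7 control arrays are again those of the contrast that chose the genes. Genes of other cell types differed too. Macrophage genes averaged 10.21 to 10.66 in control wounds at 24 h and 10.93 to 11.20 at day 7, against 8.59 to 10.55 in untreated skin, with 6 and 10 of 10 higher. Adipocyte genes averaged 9.56 to 10.01 at 24 h and 9.36 to 9.74 at day 7 in control wounds, against 9.28 to 11.76 in untreated skin, with 6 and 7 of 7 lower. Skeletal muscle genes averaged 10.81 to 11.47 at 24 h and 10.97 to 11.55 at day 7 in control wounds, against 11.27 to 12.68 in untreated skin, with 7 and 5 of 8 lower. Their part in the changes of the members was not tested. Apln read 5.23, 5.79, 6.19, 5.93 and 5.91 in untreated skin, 7.44, 7.13, 7.32 and 7.39 in control wounds at 24 h and 7.25, 6.89, 7.27, 7.13 and 7.31 at day 7. No array of these wounds overlapped with untreated skin. The changes were 1.51 (standard error 0.18, adjusted p = 2.84e-08 in limma) at 24 h and 1.36 (standard error 0.17, adjusted p = 7.11e-08 in limma) at day 7. Esm1 read 4.38, 4.61, 4.48, 3.94 and 4.80 in untreated skin, below all control wounds, and was higher by 0.72 (adjusted p = 0.0104 in limma) at 24 h and by 1.17 (adjusted p = 3.42e-05 in limma) at day 7. The Esm1 levels in untreated skin and in 24 h control wounds lie near those of Sry, 4.62 to 5.56. A change in transcript may read small there.

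Aplnr, the receptor, read 5.51, 5.94, 6.52, 5.69 and 8.63 in untreated skin. The last of these, replicate 5, lay within the range of the control wounds, 7.27 to 9.07 at 24 h and 8.34 to 9.02 at day 7. Aplnr was higher by 1.61 (standard error 0.39, adjusted p = 0.00109 in limma, exact permutation p = 0.0794) at 24 h and by 2.16 (standard error 0.37, adjusted p = 1.22e-05 in limma, exact permutation p = 0.0317) at day 7. Replicate 5 stood apart in other ways too. Its mean correlation with the 4 other untreated arrays was 0.944, where theirs were 0.977 to 0.980, its adipocyte genes averaged 9.28 against 11.06 to 11.76 in the others, and its 5′ control level was 11.72 against 12.85 to 13.13. Without it, Aplnr was higher by 2.15 at 24 h and 2.70 at day 7, and the same numbers of members were called. With only the arrays of the 2 groups in the fit, the 24 h call was lost (adjusted p = 0.0913 in limma).

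Mgp, the matrix protein, differed between the times of the control wound. It read 7.72, 7.54, 8.59, 8.37 and 9.36 in untreated skin, 8.01, 8.00, 8.29 and 8.16 at 24 h in control wounds and 8.73, 8.54, 8.50, 9.13 and 9.87 at day 7. It was higher at day 7 than at 24 h by 0.84 (standard error 0.26, adjusted p = 0.012 in limma), and the groups did not overlap. Fibroblast genes averaged 10.32 to 10.72 at day 7 and 8.69 to 9.32 at 24 h in the same arrays, with 6 of 10 higher, and their part in the Mgp result was not tested. The Mgp call was lost without control replicate 5 of day 7, where the change was 0.61 (adjusted p = 0.065 in limma). Against untreated skin it was higher by 0.64 at day 7 (adjusted p = 0.0385 in limma), a call lost without any one of untreated replicates 1, 2 and 4 or day 7 control replicates 4 and 5. Without untreated replicate 5 it was higher by 0.90. Pcdh17 differed by -0.32 and -0.04 and Kcne3 by -0.21 and -0.07 at 24 h and day 7, with no call.

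In all, 3 members were higher in control wounds than in untreated skin at 24 h, where 7.86% of probe sets were (10.3% were lower), and 4 at day 7, where 7.4% were (8.3% were lower). From 24 h to day 7 of the control, 1 member was higher, where 7.19% of probe sets were. Of the 30 tip-cell genes 9 were higher and 2 lower at 24 h against untreated skin, led by Marcksl1 at 2.93, the urokinase receptor Plaur at 2.57 and the chemokine receptor Cxcr4 at 2.26, genes that leukocytes express as well. At day 7, 8 were higher and 5 lower. The endothelial mean was 7.02 in control wounds at 24 h and 7.01 at day 7, against 6.98 in untreated skin. Untreated replicate 5 was at 6.52 and the other untreated arrays at 6.98 to 7.16. Single genes of the list went both ways at 24 h: Ecscr (1.34) and Rasip1 (0.81) were called higher, and Cd34 (-0.82), Ptprb (-0.77) and Vwf (-0.73) lower.

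Over the 9 groups day 7 VEGF was thus highest for each gene, and the arrangement of the other groups differed between some of the genes. Kcne3 was high in day 7 VEGF wounds (7.63 on average) and between 3.81 and 4.32 in the 8 other groups, where no neighbouring pair of means was further apart than the pooled SD of 0.35. Pcdh17 had day 7 VEGF at 7.33, 24 h VEGF at 5.50 and day 7 IL-22-Fc at 4.75, each further from the next than the pooled SD of 0.32, and the other 6 groups between 3.96 and 4.39 without such a gap. For Apln and Aplnr the order had day 7 VEGF on top, untreated skin at the bottom and the 7 other groups between, at 7.03 to 7.41 for Apln and 8.02 to 8.74 for Aplnr. Within those 7 no gap exceeded the pooled SD of 0.29 and 0.62. Esm1 had the same ends, at 8.70 and 4.44, and Mgp had day 7 VEGF at 10.53 above day 7 control at 8.95.

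Apart from the day 7 VEGF arrays, Esm1, Apln and Aplnr had like levels across arrays, as did Pcdh17 and Kcne3. Over all 42 arrays every pair of members had a Pearson r of 0.52 to 0.93, with the 5 high arrays among them. Over the other 37 arrays, r was 0.57 for Esm1 and Apln, 0.69 for Esm1 and Aplnr and 0.73 for Apln and Aplnr. Pcdh17 and Kcne3 had r = 0.63. In these arrays Kcne3 read 3.39 to 4.58, and Pcdh17 read 3.53 to 4.94 outside the 24 h VEGF group. Both ranges lie near the Y-linked levels given above, so r of this pair may not follow transcript. Esm1 read 3.94 to 6.08, a range that takes in the Sry levels, so the same limit holds for its r. Between the trio and the pair r ran from -0.13 to 0.10. As deviations from the means of the 8 groups of these 37 arrays, which leave out differences between groups, r was lower: 0.44 to 0.50 within the trio and 0.42 for Pcdh17 and Kcne3. Aplnr and Mgp had 0.39, but this value rested on untreated skin. Without untreated skin, and with day 7 VEGF included, r of their deviations was 0.01. In the same arrays it was 0.45 to 0.64 within the trio and 0.70 for Pcdh17 and Kcne3. Over all 42 arrays, with the 5 day 7 VEGF arrays included, the r of Pcdh17 and Kcne3 as deviations was 0.69. The genes of one array share its hybridisation and RNA quality, and these values are a description without a test.

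**Figure D4:**
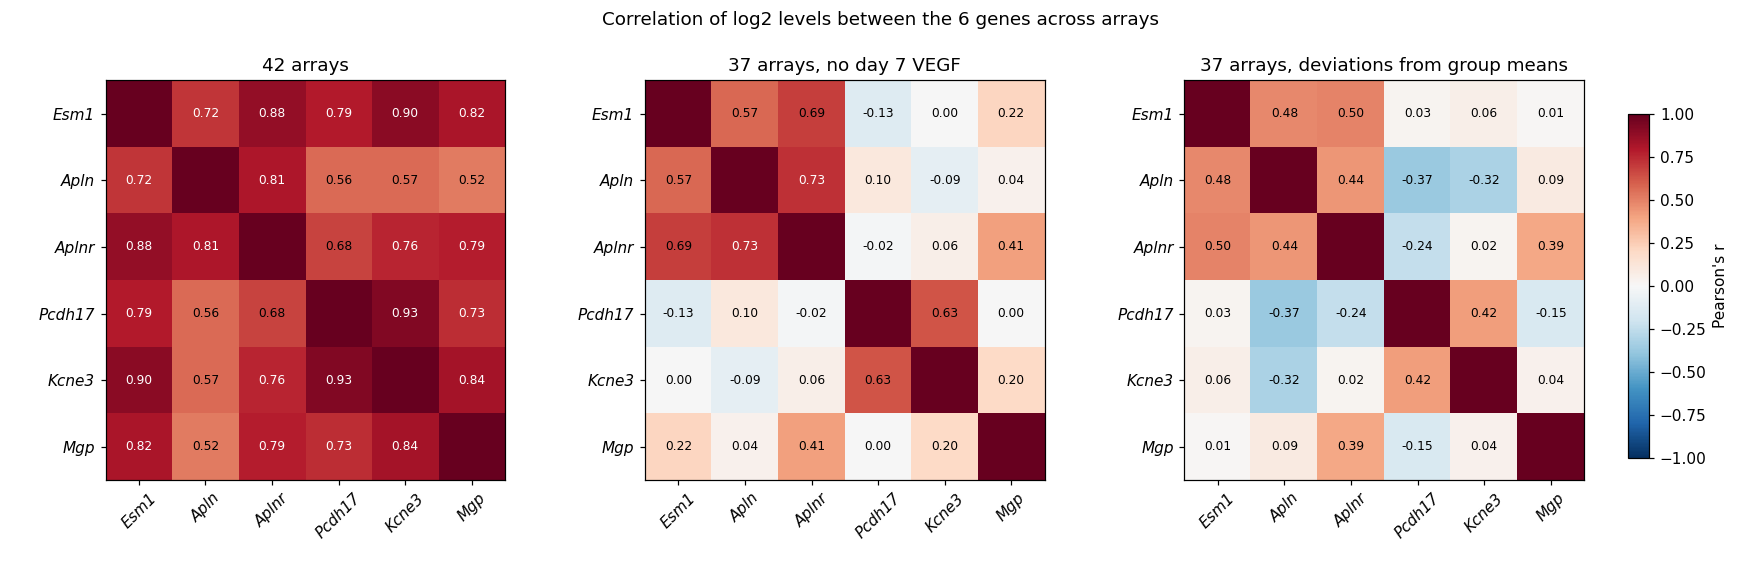
Pearson's r between the log2 levels of the 6 genes over all 42 arrays, over the 37 arrays without day 7 VEGF and for the deviations of those 37 from their group means (left to right). Without the day 7 VEGF arrays, r is 0.57 to 0.73 among Esm1, Apln and Aplnr and 0.63 for Pcdh17 and Kcne3, and as deviations 0.44 to 0.50 and 0.42, with Mgp at 0.41 or less to all others in both.

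The genes with the pattern most like each member over the 42 arrays were taken as the 3 highest values of r. The 42 arrays include the day 7 VEGF arrays that chose the members, so genes high in those arrays are favoured. Each gene named here was higher with VEGF than in the control at day 7, by 0.45 to 3.64. The list is therefore a description, not a sign of a shared pattern elsewhere. For Pcdh17 they were Ica1 (0.95), Kcne3 itself (0.93) and Vwa1, an extracellular matrix protein (0.93), and at 24 h VEGF Ica1 and Vwa1 lay 0.45 and 0.47 above the control. For Kcne3 they were the mechanosensitive channel Piezo2, the transcription factor Tbx2 (0.93 each) and Pcdh17. Esm1 was most like Fam167b (0.92), Dmp1 and the cation channel Trpc6 (0.91 each), and Aplnr like Cemip, a hyaluronan-degrading protein (0.91), Fam167b (0.90) and the collagen gene Col18a1 (0.88). Apln was most like Gngt2 (0.87), the endothelial gene Ecscr (0.86) and Ralb (0.85), and Mgp like the laminin gene Lamb1 (0.92), Col18a1 (0.91) and the glutamate receptor Gria3 (0.90).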

How the data were processed

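Affymetrix Mouse430V2 arrays of 42 skin samples were used. The authors normalized probe set intensity by RMA and kept, per Entrez gene, the probe set of highest variance, and the deposited file holds these intensities on a linear scale for 20672 probe sets (median 50.8). Their log2 was taken here. The build and annotation used by the authors are not given in the sources used here. Groups came from the labels.

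limma 3.58.1 in R 4.3.3 (data.table package, version 1.17.8) was fitted to all probe sets over the 19 arrays at 24 h, the 18 at day 7, the 37 of both for differences between times, and all 42 for untreated skin and the course of the control. p-values were adjusted by the Benjamini-Hochberg method over all probe sets, and a call needed an adjusted p under 0.05 and 1.5-fold. Exact permutation tests over arrays were two-sided and not adjusted over genes (SciPy 1.17.1, Python 3.11.15). The labels do not say whether the arrays are separate mice, so p-values measure the spread between arrays, and their number limits the precision.

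The members and all gene lists were chosen with earlier results of these data known, at 24 h as well as day 7. Genes named are the 6 members, the 3 most alike each, and up to 4 called and 2 uncalled members of a list, with others said to be chosen after their values were seen. The 24 h comparisons of VEGF with IL-22-Fc and PDGF were added after seeing the data. Alternatives were other normalizations, filters, thresholds, array sets, weights, priors, an unmoderated two-sample test per probe set, the 5′ level as a covariate, other endothelial references and each array left out. The fit was tested on simulated data. A lean control group is not analysed here. Promoters came from RefSeq.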

Additional observations from a re-analysis of the deposited data

Results flagged for a closer look

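The PDGF effect on Esm1 differed between the times by -1.16 on the log2 scale (standard error 0.33, adjusted p = 0.00654 in limma), with 0.49 at 24 h and -0.67 at day 7, and was noted because the difference between the times itself passed its test, as it did in 20.9% of all probe sets. The 3 PDGF arrays of day 7 have the low 5′ control levels given above, and with that level as a covariate the difference was -1.42 (adjusted p = 0.260 in limma). At day 7 this covariate nearly coincides with the PDGF group, so the fit cannot tell them apart. Of 48 sets of one gene in one group of 4 or 5 arrays, 0 held an array far from the rest by Dixon's criterion, where chance gives about 1 in 20.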

How the results depend on the processing

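Of the changes of called members, 138 kept their direction and call under another setting, 19 lost the call and 1 turned, and with one array left out 131 kept and 17 lost the call. With an unmoderated two-sample test per probe set 0 members were called for VEGF against control (1 otherwise) and for VEGF against IL-22-Fc (1) at 24 h, 1 for VEGF against PDGF (2), and 0 for PDGF against control at day 7 (1) and for day 7 against 24 h control (1). Over all probe sets that test called 1 for VEGF against control (21 otherwise) and 18 for VEGF against IL-22-Fc (89). It called 577 for VEGF against PDGF (713) and 3097 for PDGF against control at day 7 (3315). At an adjusted p under 0.001 and 2-fold, 1 member remained for VEGF against PDGF at 24 h, 1 for 24 h control against untreated skin, and 0 for PDGF against control and IL-22-Fc against PDGF at day 7, for day 7 against 24 h control and for the PDGF effect between times. At that threshold 122 probe sets remained for VEGF against PDGF at 24 h. There were 1019 for PDGF against control and 1191 for IL-22-Fc against PDGF at day 7, and 1419 for the PDGF effect. With the 5′ covariate the counts for PDGF against control, IL-22-Fc against PDGF and the PDGF effect were 0, and over all probe sets the calls were 183 (3315 otherwise), 146 (3710) and 142 (4325). Since this level nearly coincides with the day 7 PDGF group, these losses do not tell a PDGF change from one of the level. IL-22-Fc against PDGF at day 7 gave 2 members under quantile normalization, array weights, either filter, the fit of the 2 groups alone and the unmoderated test. Tip-cell calls for PDGF at 24 h were 1, and 0 under quantile normalization, the fit of 2 groups, the unmoderated test and the stricter threshold. They were 1 for VEGF at 24 h with array weights (0), 7 for 24 h control against untreated skin under the unmoderated test and the stricter threshold and 18 without a fold threshold (11), and 6 and 5 for day 7 control (13) under the unmoderated test and the stricter threshold.

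With each array left out in turn, member counts ran from 1 to 2 for VEGF against PDGF at 24 h, from 0 to 1 for PDGF against control, from 0 to 2 for IL-22-Fc against PDGF at day 7 and from 0 to 2 for day 7 against 24 h control, and tip-cell counts for PDGF at 24 h from 0 to 1. Pcdh17 with VEGF at 24 h stayed between 1.31 and 1.58 and was called each time.

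One called change turned, that of Pcdh17 between IL-22-Fc and PDGF at day 7, to -0.25 with the 5′ covariate. Relative to the mean of Pecam1 and Cdh5 in place of the endothelial list, the 24 h VEGF differences of Apln, Aplnr and Mgp were 0.18, 0.0541 and 0.0724, against -0.02, -0.15 and -0.13. That of Pcdh17 was 1.53, and 1.05 with the median of the list, each with an exact permutation p = 0.0159. In each case the cause was not tested. No paired analysis was possible because the replicate numbers are running numbers that the labels do not tie to shared animals or batches.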
